A study of Homo sapiens with 24 samples.

Results

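The measurements described here are those of 10 genes of protein folding in the endoplasmic reticulum (ER): HSPA5, HSP90B1, CALR, CANX, PDIA4, PDIA6, DNAJB9, SDF2L1, HYOU1 and HERPUD1. They were taken by symbol from the deposited table of 25082 genes, by a rule that names them and sets no threshold on their values, and all 10 had a row. The set was proposed with earlier results of these data known. All 10 were also among the 20154 genes tested, which had a normalised read count of at least 10 in at least 3 libraries. Proteins bound for the membrane or the cell surface are folded in the ER by chaperones of the HSP70 and HSP90 families, by the lectin chaperones calreticulin and calnexin, which hold glycoproteins by their sugars, and by protein disulfide isomerases. When unfolded protein builds up, the sensors ATF6, IRE1 (gene ERN1) and PERK (gene EIF2AK3) raise the transcription of chaperone genes, which is called the unfolded protein response. Calreticulin, the product of CALR, is also known in myeloproliferative neoplasms, where frameshift mutations of CALR are among the known drivers of disease.

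SET2 is an established human megakaryoblastic cell line derived from a myeloproliferative neoplasm, and its growth depends on JAK2. Poly(A) RNA was sequenced in 24 libraries, 3 in each of 8 groups. There were 4 persistent lines, each grown with 1 type I JAK inhibitor: BMS911543, CYT387 (momelotinib), INC424 (ruxolitinib) or SAR302503 (fedratinib). Of the naive SET2 cells, 1 group had 48 h of INC424, 1 had 4 h of INC424 and 1 had 4 h of the vehicle DMSO, and a further group has no exposure in its labels. All groups were grown in RPMI1640 medium with 20% FCS. The labels give no inhibitor concentration, no duration of the persistent culture and nothing on the source of replicates, which may be technical. The p-values therefore measure the spread between these libraries alone. Each inhibitor is represented by 1 line. The vehicle group is of 4 h, so time with INC424 and time in culture cannot be told apart at 48 h.

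Levels are normalised read counts, that is reads per gene divided by 1 size factor per library. They are not corrected for gene length, so levels are compared between groups and not between genes. Differences are log2 differences of the normalised count plus 1, given ± SE, from 1 limma fit over the 8 groups. A gene is called higher or lower where its two-sided p, adjusted by Benjamini-Hochberg over all genes tested in that comparison, was under 0.05. Comparisons with naive cells share the 3 naive libraries and comparisons with DMSO share the 3 DMSO libraries. DMSO-treated cells and naive cells were themselves far apart, with 26.0% of genes called between them, and each line is therefore set against both controls apart.

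The libraries held 21770721 to 36160750 reads assigned to genes, of which the 10 members took 0.351% to 0.570%. Megakaryoblast markers (10 of 10 in the table) took 0.423% to 0.769% of reads in all libraries except library 2 of the CYT387 line, where they took 0.285%. In that library, squamous epithelial markers (10 of 10 in the table) took 0.422% of reads, stromal, vessel and macrophage markers (9 of 10) 0.624% and plasma cell markers (4 of 6) 0.0283%. The squamous markers took 0.0963% in SAR302503 line library 3, 0.0258% in INC424 line library 2, 0.0209% in INC424 48 h library 3 and at most 0.0167% in the other 20 libraries, and KRT17, a keratin among them, was at 0 in naive cells. The part of this RNA in the results was not tested beyond giving them without those libraries. Because all groups share 1 estimate of the spread, CYT387 line library 2 also bears on comparisons it is not in. In these bulk samples, fewer cells of a type and less RNA per cell cannot be told apart.

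The promoter sequences are shown because chaperone genes of the ER are known to share short response elements of the unfolded protein response, and the members below did not all follow the same pattern across groups. Windows of 250 bases before the transcription start were read from RefSeq (GRCh38.p14), and all 10 members matched, with 15 windows between them. The ER stress response element ERSE was searched on both strands as CCAAT followed after 9 bases of any kind by CCACG, the related ERSE-II as ATTGG followed after 1 base by CCACG, and the core of the unfolded protein response element as TGACGTGG. ERSE was present before HSPA5, HSP90B1, CALR, CANX and PDIA6. It lay in 6 of the 15 windows of members and in 0.074% of 35116 windows of all genes, members included. ERSE-II was present before HYOU1, HERPUD1 and SDF2L1, in 3 of the 15 member windows and in 0.0513% of all windows. The TGACGTGG core lay before HYOU1, where it overlaps an ERSE-II, in 1 of the 15 and in 0.612% of all windows. No match to these letters lay in the windows of DNAJB9 and PDIA4. The windows of 5 members are printed 5′ to 3′ on the strand of the gene, with ERSE, ERSE-II and the overlapping core in capitals. They lie at chr9:125241344-125241593 (minus strand) for HSPA5, chr12:103930160-103930409 (plus) for HSP90B1, chr19:12938359-12938608 (plus) for CALR, chr11:119057206-119057455 (minus) for HYOU1 and chr16:56931892-56932141 (plus) for HERPUD1.
HSPA5: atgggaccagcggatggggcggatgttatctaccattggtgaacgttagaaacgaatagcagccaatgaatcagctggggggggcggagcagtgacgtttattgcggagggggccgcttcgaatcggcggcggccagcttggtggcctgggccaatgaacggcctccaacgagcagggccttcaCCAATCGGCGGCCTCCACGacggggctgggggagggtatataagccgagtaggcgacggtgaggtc
HSP90B1: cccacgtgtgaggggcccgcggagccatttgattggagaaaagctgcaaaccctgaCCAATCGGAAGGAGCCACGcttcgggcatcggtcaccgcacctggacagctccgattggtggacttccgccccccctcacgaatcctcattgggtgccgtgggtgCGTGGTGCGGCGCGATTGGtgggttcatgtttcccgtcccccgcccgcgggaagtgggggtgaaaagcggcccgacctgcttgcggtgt
CALR: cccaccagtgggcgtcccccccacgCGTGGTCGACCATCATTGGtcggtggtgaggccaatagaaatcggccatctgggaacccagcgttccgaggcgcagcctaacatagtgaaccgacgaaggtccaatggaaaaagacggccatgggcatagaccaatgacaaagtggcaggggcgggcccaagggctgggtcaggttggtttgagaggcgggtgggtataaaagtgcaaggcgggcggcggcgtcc
HYOU1: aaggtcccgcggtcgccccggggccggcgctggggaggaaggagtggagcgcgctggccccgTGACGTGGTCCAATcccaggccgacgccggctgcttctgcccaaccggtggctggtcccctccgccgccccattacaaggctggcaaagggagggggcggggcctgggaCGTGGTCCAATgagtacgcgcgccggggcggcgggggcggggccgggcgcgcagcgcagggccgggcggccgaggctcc
HERPUD1: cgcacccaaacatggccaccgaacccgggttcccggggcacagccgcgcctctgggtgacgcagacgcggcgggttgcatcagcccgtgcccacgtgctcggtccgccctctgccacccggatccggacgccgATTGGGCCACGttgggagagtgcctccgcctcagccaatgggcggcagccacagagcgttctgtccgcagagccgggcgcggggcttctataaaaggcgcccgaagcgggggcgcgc
The HSPA5 element spans positions -66 to -48 from the start. HSP90B1 has 2 matches, at -194 to -176 and, on the other strand, at -89 to -71, while the CALR match lies farther out, at -225 to -207 on the other strand. In HYOU1 both ERSE-II matches are on the other strand, at -185 to -175 and -79 to -69, and in HERPUD1 the match is at -117 to -107. The matches in the other members were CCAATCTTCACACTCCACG in CANX, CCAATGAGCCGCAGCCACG in PDIA6 and CGTGGACCAAT, which is the other strand of an ERSE-II, in SDF2L1. A match describes letters and not binding.

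**Figure D1:**
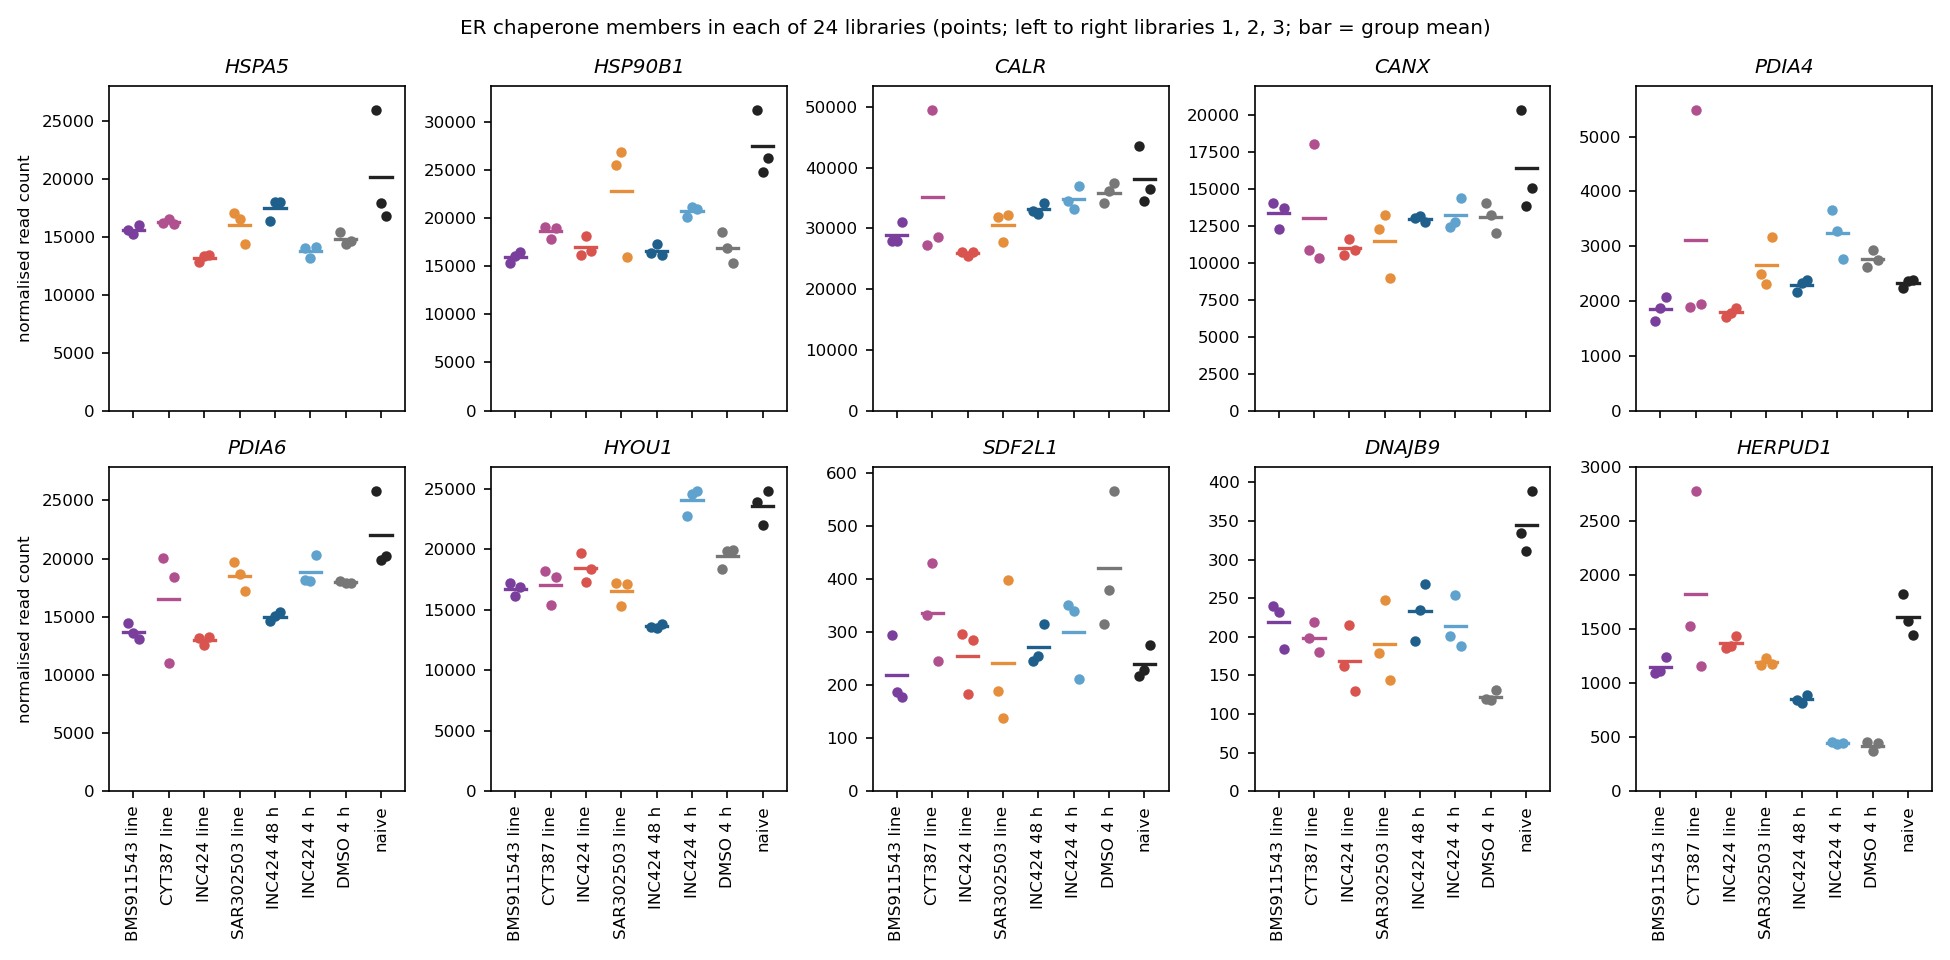
Normalised read count of each of the 10 members (vertical axis, from 0, a scale of its own per gene) in each of the 24 libraries (points), by group (horizontal axis), with the group mean as a bar. DNAJB9 is highest in the 3 naive libraries and HERPUD1 is low in the DMSO and INC424 4 h libraries, while CALR, CANX and PDIA4 have a high point in library 2 of the CYT387 line.

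The ratio of the highest to the lowest of the 8 group means was 4.33 for HERPUD1 and 2.82 for DNAJB9, and lay between 1.47 (CALR) and 1.92 (SDF2L1) for the other 8 members. Naive cells had the highest mean of 6 members, HSPA5, HSP90B1, CALR, CANX, PDIA6 and DNAJB9. A limma F test over the 8 groups passed for 7 of the 10 members, where 66.6% of all genes passed. The members that did not pass were CALR (adjusted p 0.060), CANX (adjusted p 0.163) and SDF2L1 (adjusted p 0.157).

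HSPA5 (BiP), the HSP70 chaperone that binds unfolded chains and holds the stress sensors inactive, was lower in the mean of the lines than in naive cells and did not differ from DMSO beyond its error. Its normalised read counts in libraries 1, 2 and 3 were 15576, 15215 and 16016 in the BMS911543 line, 16197, 16535 and 16054 in the CYT387 line, 12781, 13296 and 13423 in the INC424 line and 17045, 16487 and 14353 in the SAR302503 line. They were 16315, 17996 and 17976 after INC424 for 48 h, 14012, 13147 and 14137 after INC424 for 4 h, 15404, 14392 and 14587 after DMSO and 25917, 17875 and 16760 in naive cells. All 3 libraries of the INC424 line lay below every DMSO and naive library, and naive library 1 stood far above the other 2 naive libraries. The mean of the 4 lines differed from naive cells by -0.38 ± 0.10 log2 (adjusted p 0.0059), and without naive library 1 by -0.19, which did not pass. Against DMSO the same mean differed by 0.04 ± 0.10 log2, with a 95% interval of -0.16 to 0.24.

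HYOU1, an ER chaperone that exchanges the nucleotide of BiP, was lower than naive in every line by a similar amount. Its counts were 17215, 16168 and 16849 in the BMS911543 line, 18165, 15362 and 17706 in the CYT387 line, 19702, 17275 and 18369 in the INC424 line and 17220, 15307 and 17092 in the SAR302503 line. They were 13562, 13481 and 13809 after INC424 for 48 h, 22788, 24592 and 24850 after 4 h, 18371, 19861 and 19969 after DMSO and 23886, 22039 and 24827 in naive cells. The highest library of any line was below the lowest naive library, and the 3 libraries at 48 h were the lowest of all 24. The differences from naive cells ran from -0.51 in the SAR302503 line to -0.35 in the INC424 line, each called.

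DNAJB9 (ERdj4), a co-chaperone that brings BiP to misfolded proteins, had its 3 highest counts in the naive libraries and its lowest in the DMSO libraries and INC424 line library 3. The counts were 240, 233 and 184 in the BMS911543 line, 198, 219 and 181 in the CYT387 line, 162, 215 and 129 in the INC424 line and 178, 248 and 144 in the SAR302503 line. They were 195, 235 and 268 after INC424 for 48 h, 201, 254 and 187 after 4 h, 120, 117 and 130 after DMSO and 334, 312 and 389 in naive cells. Every library of the lines and of the INC424-treated cells lay below the lowest naive library, and all but INC424 line library 3 lay above the highest DMSO library. The gene was thus called lower than naive and higher than DMSO in the mean of the lines, at -0.85 ± 0.17 and 0.63 ± 0.17 log2.

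SDF2L1, a partner of BiP and ERdj3 that is induced by ER stress, had counts that overlapped between most groups. They were 294, 186 and 178 in the BMS911543 line, 333, 429 and 245 in the CYT387 line, 296, 183 and 285 in the INC424 line and 188, 137 and 397 in the SAR302503 line. They were 246, 255 and 315 after INC424 for 48 h, 350, 339 and 211 after 4 h, 315, 379 and 566 after DMSO and 217, 228 and 276 in naive cells. The DMSO mean was the highest, and DMSO library 3 had the highest count of the 24. The mean of the lines was lower than DMSO, at -0.71 ± 0.26 log2 (adjusted p 0.037), and this did not pass without 1 of DMSO library 2 or 3, BMS911543 line library 2 or 3, INC424 line library 2 or SAR302503 line library 1, with values from -0.77 to -0.48.

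HSP90B1 (GRP94), the HSP90 chaperone of the ER that folds integrins and Toll-like receptors, was lower than naive in 3 lines. The counts were 15309, 16051 and 16507 in the BMS911543 line, 19086, 17766 and 18920 in the CYT387 line, 16187, 18100 and 16581 in the INC424 line and 25519, 26874 and 15914 in the SAR302503 line. They were 16312, 17340 and 16124 after INC424 for 48 h, 20094, 21170 and 20894 after 4 h, 18491, 16885 and 15294 after DMSO and 31194, 24811 and 26254 in naive cells. Libraries 1 and 2 of the SAR302503 line lay among the naive libraries, whereas its library 3, one of the 4 with more squamous marker RNA, lay among the DMSO libraries. The 3 INC424 4 h libraries lay above the 3 DMSO libraries, but the difference of 0.30 ± 0.14 log2 did not pass (adjusted p 0.25). The table also holds the near-copies HSP90B2P and HSP90B3P, with mean counts of 518 and 327, and the counting could divide reads among them.

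CALR, the soluble lectin chaperone that also buffers ER calcium, had the lowest ratio between groups of the 10 members. The counts were 27862, 27845 and 31048 in the BMS911543 line, 27283, 49479 and 28597 in the CYT387 line, 26098, 25491 and 26131 in the INC424 line and 31823, 27786 and 32262 in the SAR302503 line. They were 32934, 32380 and 34208 after INC424 for 48 h, 34531, 33213 and 36964 after 4 h, 34187, 36097 and 37396 after DMSO and 43621, 34451 and 36422 in naive cells. With the exception of CYT387 line library 2, which had the highest count of the 24, the libraries of the lines lay between 25491 and 32262, below every DMSO, naive, 48 h and 4 h library. The mean of the lines was lower than naive, at -0.36 ± 0.13 log2 (adjusted p 0.045) and differed from DMSO by -0.27 ± 0.13 log2, which did not pass (adjusted p 0.097).

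Without CYT387 line library 2, CALR was called lower in every line against both controls. Against naive cells the differences were then -0.39 for the BMS911543 line, -0.44 for the CYT387 line, -0.55 for the INC424 line and -0.31 for the SAR302503 line, and -0.43 for their mean. Against DMSO they were -0.31, -0.36, -0.47 and -0.23 in the same order, and -0.34 for the mean. DMSO and naive cells differed in CALR by -0.08 ± 0.16 log2 (adjusted p 0.75; 95% interval -0.41 to 0.25), and INC424 for 48 h and 4 h differed from DMSO by -0.11 ± 0.16 and -0.04 ± 0.16 log2, none of them called with all libraries. Removing that library also raised the share of all genes called, to 30.8% for the mean of the lines against naive and to 44.3% against DMSO. The call against naive was sensitive to single libraries in the full set, since it did not pass without any 1 of 12 of the 15 libraries (all but BMS911543 line library 3, CYT387 line library 2 and SAR302503 line library 3), at -0.43 to -0.26.

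CANX, the membrane-bound lectin chaperone paired with CALR, showed no call against DMSO in any line with all libraries. The counts were 14040, 12323 and 13750 in the BMS911543 line, 10853, 18065 and 10329 in the CYT387 line, 10543, 11631 and 10906 in the INC424 line and 12304, 13262 and 8964 in the SAR302503 line. They were 13063, 13183 and 12799 after INC424 for 48 h, 12469, 12780 and 14414 after 4 h, 14080, 13232 and 12045 after DMSO and 20367, 13887 and 15097 in naive cells. Naive library 1 and CYT387 line library 2 were the 2 highest. The mean of the lines was lower than naive, at -0.43 ± 0.14 log2 (adjusted p 0.031), and did not pass without naive library 1 (-0.26) or naive library 3 (-0.48). In the CYT387 line the difference from naive was -0.36 ± 0.18, and without its library 2 it was -0.62 and called. Its difference from DMSO was -0.05, and without its library 2 it was -0.31 and not called. That difference was called without the 4 libraries with most squamous marker RNA (-0.31).

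The isomerases PDIA4 (ERp72) and PDIA6 (P5), which form and rearrange disulfide bonds, were each measured in all libraries. PDIA6 counts were 14427, 13588 and 13046 in the BMS911543 line, 20017, 11053 and 18397 in the CYT387 line, 13189, 12545 and 13226 in the INC424 line and 19680, 18715 and 17222 in the SAR302503 line. They were 14591, 15053 and 15368 after INC424 for 48 h, 18130, 18057 and 20340 after 4 h, 18116, 17911 and 17898 after DMSO and 25851, 19879 and 20247 in naive cells. The BMS911543 and INC424 lines were below all DMSO and naive libraries, while the SAR302503 line overlapped with DMSO. CYT387 line library 2 was the lowest of the 24 for PDIA6 and, at 5483, the highest of the 24 for PDIA4.

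PDIA4 counts were 1641, 1867 and 2071 in the BMS911543 line, 1894, 5483 and 1949 in the CYT387 line, 1715, 1777 and 1879 in the INC424 line and 2486, 2314 and 3160 in the SAR302503 line. They were 2165, 2319 and 2388 after INC424 for 48 h, 3668, 3278 and 2771 after 4 h, 2626, 2927 and 2741 after DMSO and 2233, 2366 and 2386 in naive cells. The BMS911543 and INC424 lines lay below every DMSO and naive library. PDIA4 was called in none of the 23 comparisons of groups, and the mean of the lines against DMSO, at -0.32 ± 0.20 log2, was called without CYT387 line library 2, at -0.45. Without that library PDIA4 was also called lower than DMSO in the BMS911543 line (-0.58), the CYT387 line (-0.52) and the INC424 line (-0.63), and lower than naive in the BMS911543 line (-0.33) and the INC424 line (-0.38).

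HERPUD1 (Herp), a membrane protein of ER-associated degradation and a known target of the unfolded protein response, moved most of the 10. Its counts were 1090, 1112 and 1242 in the BMS911543 line, 1526, 2783 and 1162 in the CYT387 line, 1323, 1347 and 1438 in the INC424 line and 1172, 1235 and 1173 in the SAR302503 line. They were 844, 818 and 886 after INC424 for 48 h, 454, 439 and 447 after 4 h, 452, 370 and 442 after DMSO and 1830, 1573 and 1443 in naive cells. The 6 libraries of the DMSO and INC424 4 h groups were all below the 48 h libraries, and these were all below the libraries of the lines and of naive cells.

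Against naive cells, the mean of the 4 lines had 7 of the 10 members lower and 0 higher, where 12.0% of all genes tested were lower and 21.8% were called in either direction. The largest were DNAJB9 at -0.85 ± 0.17 log2 (adjusted p 0.00091), HSP90B1 at -0.58 ± 0.11 (adjusted p 0.00068), PDIA6 at -0.53 ± 0.12 (adjusted p 0.0028) and HYOU1 at -0.46 ± 0.08 (adjusted p 0.00012), and none of these 4 lost the call when any 1 of the 15 libraries was left out. HSPA5, CANX and CALR were the other 3. PDIA4 at -0.08 ± 0.20 log2, SDF2L1 at 0.05 ± 0.26 and HERPUD1 at -0.27 ± 0.15 did not pass. The libraries of the lines and of naive cells did not overlap for DNAJB9 and HYOU1, the only 2 such members. The share of all genes without overlap was not counted. The median over the 10 members was -0.41 log2, and over all genes tested it was 0.01. HERPUD1 was called without CYT387 line library 2 (-0.36). Naive library 1 gave 0.570% of its reads to the members, against 0.475% and 0.490% in naive libraries 2 and 3. Without naive library 1, 4 members were called. Over the 9 tests it bears on, leaving it out moved the number of all genes called by 0.637 to 0.977 times. Without CYT387 line library 2, 8 members were called, where 30.8% of all genes were called.

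Line by line, DNAJB9 and HYOU1 were lower than naive in all 4. The BMS911543 line had 5 members lower (24.6% of genes called, 14.2% lower), among them HSP90B1 at -0.77 ± 0.14 log2 and PDIA6 at -0.67 ± 0.15. Its HSPA5 call at -0.34 ± 0.12 was lost without any BMS911543 line library or naive library 1 (-0.36 to -0.15), and its DNAJB9 call at -0.66 ± 0.22 without BMS911543 line library 2 or 3 or naive library 1 or 3 (-0.71 to -0.54). HERPUD1, at -0.49 ± 0.19, was called there without CYT387 line library 2. The INC424 line had 7 members lower (22.5% of genes called, 12.5% lower). They included HSPA5 at -0.59 ± 0.12 (adjusted p 0.001), PDIA6 at -0.75 ± 0.15 (adjusted p 0.00088), DNAJB9 at -1.05 ± 0.22 (adjusted p 0.00095) and CALR at -0.55 ± 0.16 (adjusted p 0.014). Of these 7, CALR was lost without naive library 1 (-0.45), HYOU1 without INC424 line library 2 (-0.31) and CANX without INC424 line library 1 or 3 or naive library 1 (-0.55 to -0.39).

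The CYT387 line had 4 members lower than naive (22.3% of genes called, 11.1% lower): HSP90B1 at -0.55 ± 0.14 log2, PDIA6 at -0.45 ± 0.15, DNAJB9 at -0.79 ± 0.22 and HYOU1 at -0.47 ± 0.10. PDIA6 libraries overlapped with naive, and its call was lost without CYT387 line library 2 (-0.19), naive library 1 (-0.33) or naive library 3 (-0.51). HSP90B1 was lost without naive library 1 (-0.46) and DNAJB9 without naive library 3 (-0.70), while HSPA5, at -0.28 ± 0.12, was called without naive library 3 (-0.40). The SAR302503 line had 3 members lower (19.3% of genes called, 10.6% lower): CANX at -0.52 ± 0.18, DNAJB9 at -0.88 ± 0.22 (adjusted p 0.0056) and HYOU1 at -0.51 ± 0.10 (adjusted p 0.00054). The CANX call was lost without SAR302503 line library 1 or 3 or naive library 1 or 3 (-0.57 to -0.34). In this line HSPA5 was called without CYT387 line library 2 (-0.31) or naive library 3 (-0.44), HERPUD1 without CYT387 line library 2 (-0.43) and HSP90B1, at -0.30 ± 0.14, without SAR302503 line library 2 (-0.44). Without the 4 libraries with most squamous marker RNA, SAR302503 line library 3 among them, HSP90B1 stood at -0.06 and was not called. With only the 2 groups compared in the fit, 0 members were called against naive in the CYT387 line and 0 in the SAR302503 line. Over the 25 tests, fitting only the compared groups moved the number of all genes called by 0.101 to 2.62 times. These zeros are therefore not read as a result about the members. Different counts of calls between lines do not show that the lines differ, and the direct tests between them are given further on.

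**Figure D2:**
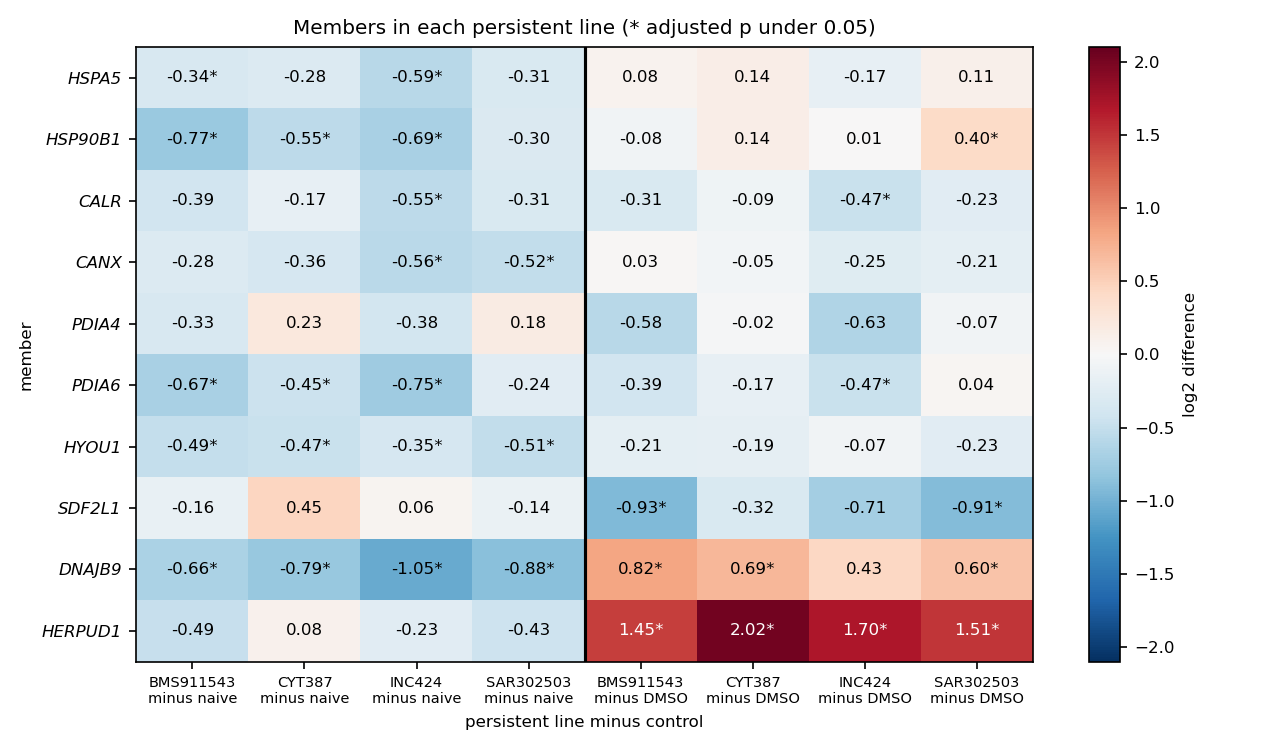
Log2 difference of each member (vertical axis) in each persistent line against naive cells and against DMSO (horizontal axis), as colour, with an asterisk where the adjusted p was under 0.05. DNAJB9 and HYOU1 are lower than naive in all 4 lines, and HERPUD1 is higher than DMSO in all 4.

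Against DMSO the members called in the lines went in both directions, and in their mean the number was near the share of all genes called. In the mean of the 4 lines 2 members were higher and 1 was lower, where 33.4% of all genes were called, 17.0% higher and 16.4% lower. HERPUD1 was higher by 1.67 ± 0.15 log2 (adjusted p 2.7e-08) and DNAJB9 by 0.63 ± 0.17 (adjusted p 0.0067), neither losing the call when 1 library was left out, and SDF2L1 was lower. HSPA5 at 0.04 ± 0.10, HSP90B1 at 0.12 ± 0.11, CANX at -0.12 ± 0.14 and PDIA6 at -0.25 ± 0.12 did not pass, although PDIA6 was called without CYT387 line library 1 (-0.29). HYOU1 stood at -0.18 ± 0.08 (adjusted p 0.08). The median over the members was -0.15 log2. With CYT387 line library 2 left out, 2 members were higher and 3 lower, where 44.3% of all genes were called, and 7 members were called in the BMS911543 line (31.9% of genes) and 6 in the SAR302503 line (44.5%).

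HERPUD1 was higher than DMSO in each line, by 1.45 ± 0.19 log2 in BMS911543 (21.8% of genes called), 2.02 ± 0.19 in CYT387 (36.3%), 1.70 ± 0.19 in INC424 (30.9%) and 1.51 ± 0.19 in SAR302503 (32.2%). Leaving out CYT387 line library 2, where the count was 2783, put the CYT387 line at 1.66. DNAJB9 was higher than DMSO in the BMS911543 line (0.82 ± 0.22), the CYT387 line (0.69 ± 0.22; 0.66 and not called without DMSO library 2) and the SAR302503 line (0.60 ± 0.22). In the INC424 line it stood at 0.43 ± 0.22 (adjusted p 0.14). The INC424 line was lower in CALR at -0.47 ± 0.16 (adjusted p 0.028) and PDIA6 at -0.47 ± 0.15 (adjusted p 0.023), and neither call held (-0.48 to -0.44) once 1 library was left out, any of the 6 compared for PDIA6 and any but DMSO library 1 for CALR. SDF2L1 was lower in the BMS911543 line (-0.93 ± 0.33) and the SAR302503 line (-0.91 ± 0.33), with libraries of the SAR302503 line overlapping DMSO. In the SAR302503 line HSP90B1 was higher by 0.40 ± 0.14 (adjusted p 0.039), also with overlap, and by 0.64 without SAR302503 line library 3. It did not pass without SAR302503 line library 1 (0.30) or 2 (0.26) or DMSO library 2 (0.40) or 3 (0.33). The SDF2L1 calls were lost without DMSO library 2 or 3, BMS911543 line library 2 or 3 (-0.98 to -0.69) or SAR302503 line library 1 or 2 (-0.96 to -0.58), each in its own comparison. The DNAJB9 call of the SAR302503 line was lost without any compared library except SAR302503 line library 3 (0.39 to 0.64). Without CYT387 line library 2, HYOU1 was called lower than DMSO in the BMS911543 line (-0.21) and the SAR302503 line (-0.23), and PDIA6 in the BMS911543 line (-0.39).

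**Figure D3:**
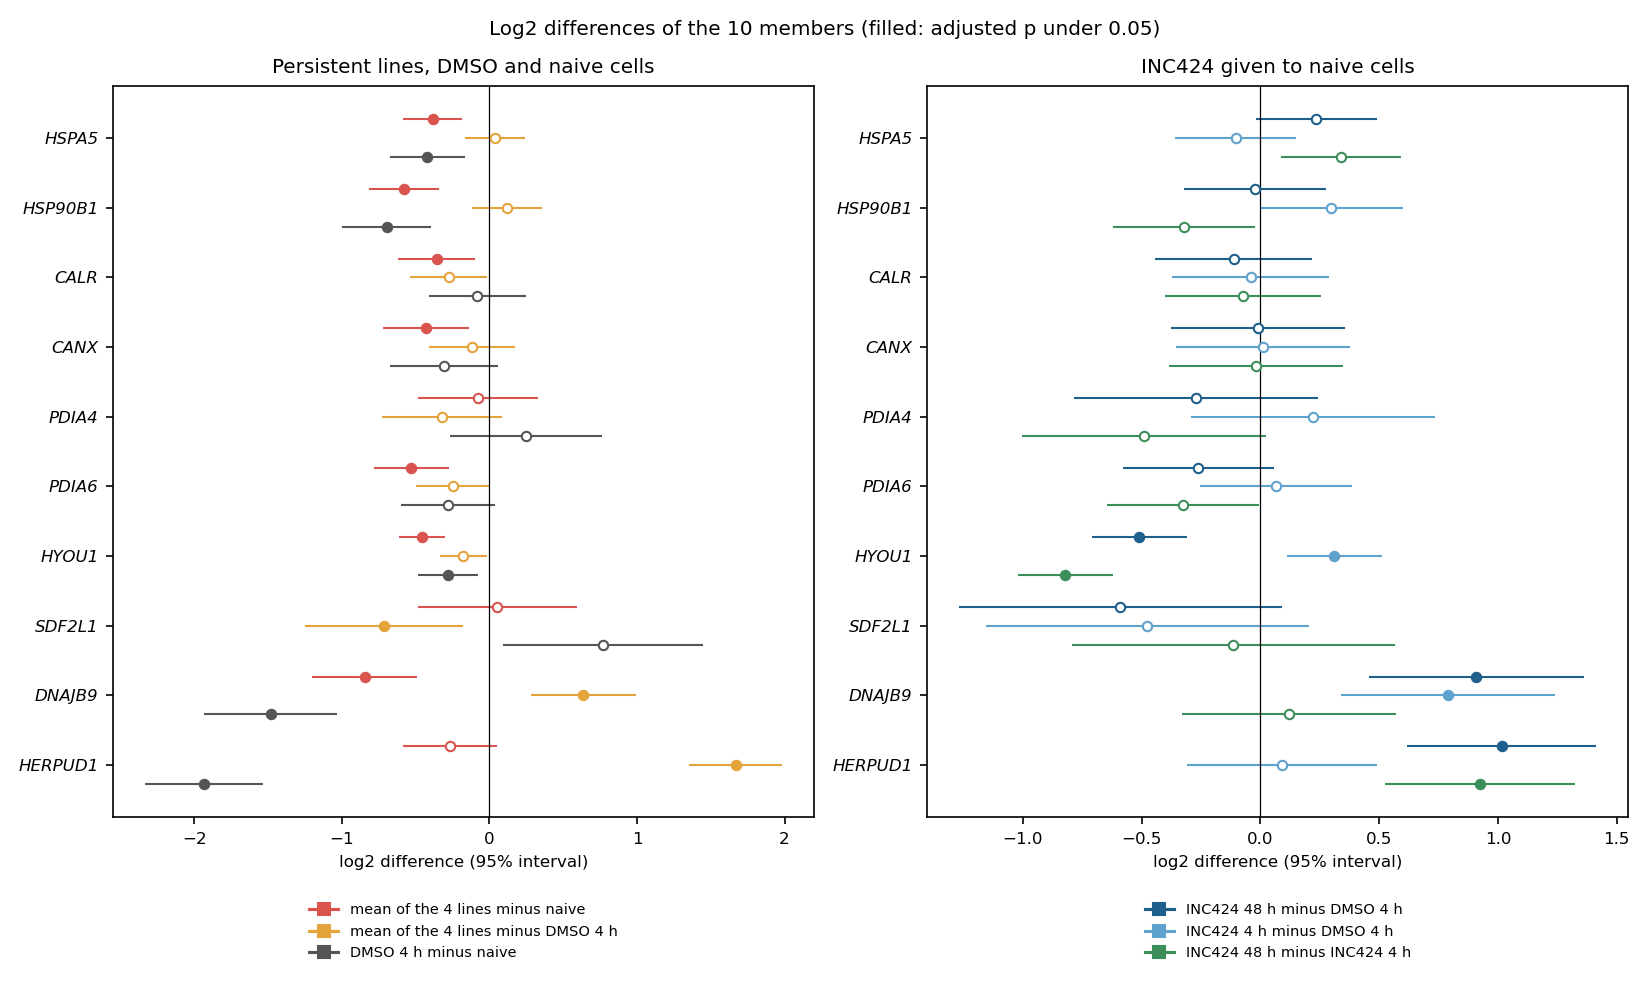
Log2 difference of each member (vertical axis) with its 95% interval (horizontal axis), filled where the adjusted p was under 0.05. The left panel shows the mean of the 4 lines against naive, the same mean against DMSO, and DMSO against naive, and the right panel INC424 48 h against DMSO, 4 h against DMSO and 48 h against 4 h. HERPUD1 is at 1.67 against DMSO and at -0.27 against naive for the same lines.

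Between the 2 controls, 5 of the 10 members were lower after DMSO than in naive cells and 0 were higher, where 14.6% of all genes were lower. HERPUD1 was lower, at -1.94 ± 0.19 log2 (adjusted p 2e-07), DNAJB9 at -1.48 ± 0.22 (adjusted p 2.9e-05) and HSP90B1 at -0.70 ± 0.14 (adjusted p 0.0011), and these 3 held the call with any 1 library left out. HSPA5 at -0.42 ± 0.12 was lost without DMSO library 2 (-0.40) or naive library 1 (-0.23). HYOU1 at -0.28 ± 0.10 was lost without any compared library except naive library 2 (-0.30 to -0.24). The other members stood at -0.08 ± 0.16 for CALR, -0.31 ± 0.18 for CANX, -0.28 ± 0.15 for PDIA6 (called without CYT387 line library 2), 0.25 ± 0.25 for PDIA4 and 0.77 ± 0.33 for SDF2L1. Without the 4 libraries with most squamous marker RNA, CANX and PDIA6 were called lower, and PDIA4 and SDF2L1 higher.

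In naive cells given INC424 for 4 h, 2 members were called relative to DMSO, both higher, where 4.88% of all genes were higher and 8.37% were called. DNAJB9 was higher by 0.79 ± 0.22 log2 (adjusted p 0.025) and HYOU1 by 0.31 ± 0.10 (adjusted p 0.048), each with no overlap of libraries. Libraries did not overlap for 4 of the 10 members in all, and the share over all genes was not counted. The DNAJB9 call was lost without any compared library except INC424 4 h library 3 (0.66 to 0.84), and the HYOU1 call without any 1 of the 6 libraries compared (0.27 to 0.35). HERPUD1 differed by 0.09 ± 0.19 with a 95% interval of -0.31 to 0.49, while CALR stood at -0.04 ± 0.16 and HSPA5 at -0.10 ± 0.12.

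After 48 h, DNAJB9 was higher than DMSO by 0.91 ± 0.22 log2 (adjusted p 0.0024) and HERPUD1 by 1.02 ± 0.19 (adjusted p 0.00029), while HYOU1 was lower, at -0.51 ± 0.10 (adjusted p 0.00028). These 3 of 10 stand beside 33.9% of all genes called, and none was lost with any 1 library left out. HSPA5 at 0.24 ± 0.12 (adjusted p 0.15), PDIA6 at -0.26 ± 0.15 and PDIA4 at -0.27 ± 0.25 did not pass, PDIA6 being called without CYT387 line library 2. In the direct comparison of 48 h with 4 h, HYOU1 was lower, at -0.82 ± 0.10 log2 (adjusted p 5.5e-06) and HERPUD1 higher by 0.92 ± 0.19 (adjusted p 0.0021), where 14.7% of genes were called. HYOU1 was thus above DMSO at 4 h and below it at 48 h, and DNAJB9 differed between the times by 0.12 ± 0.22, which did not pass. Without CYT387 line library 2, HSPA5 (0.34), PDIA4 (-0.49) and PDIA6 (-0.33) were also called between the times.

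Set against naive cells, INC424 for 48 h had HSP90B1 lower, at -0.72 ± 0.14 log2, PDIA6 at -0.54 ± 0.15, HYOU1 at -0.79 ± 0.10 and HERPUD1 at -0.92 ± 0.19 (20.0% of genes called). The PDIA6 call was lost without INC424 48 h library 1 (-0.52) or naive library 1 (-0.42). INC424 for 4 h had HSPA5 lower, at -0.53 ± 0.12, DNAJB9 at -0.69 ± 0.22 and HERPUD1 at -1.84 ± 0.19 (11.8% of genes called). The DNAJB9 call was lost without any compared library except INC424 4 h library 2 (-0.76 to -0.60), and HSPA5 stood at -0.33 without naive library 1. Without CYT387 line library 2, DNAJB9 at 48 h (-0.57) and, at 4 h, HSP90B1 (-0.40) and PDIA4 (0.47) were called as well.

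The INC424 line and naive cells given INC424 for 48 h carry the same inhibitor. In the line, HERPUD1 was higher by 0.69 ± 0.19 log2 (adjusted p 0.009) and HYOU1 by 0.44 ± 0.10 (adjusted p 0.0014), and HSPA5 was lower, at -0.40 ± 0.12 (adjusted p 0.015), where 29.9% of genes were called. The libraries of these 2 groups did not overlap for 7 members, the 3 called ones among them. The share over all genes was not counted. HSPA5 did not pass without INC424 48 h library 2 or 3 or INC424 line library 1, at -0.38 in each case. CALR at -0.36 ± 0.16, PDIA4 at -0.36 ± 0.25 and DNAJB9 at -0.48 ± 0.22 did not pass with all libraries. CALR and PDIA4 were called without CYT387 line library 2, DNAJB9 without INC424 line library 2 (-0.67), and all 3 without the 4 libraries with most squamous marker RNA (-0.32, -0.32 and -0.56).

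Among the 4 lines, which carry different inhibitors at concentrations the labels do not give, a limma F test passed for HSP90B1 and PDIA6, where 47.1% of all genes passed. Over the 6 pairs of lines, each adjusted over all genes, HSP90B1 was lower in BMS911543 than in SAR302503, at -0.48 ± 0.14 log2 (adjusted p 0.019) and PDIA6 at -0.44 ± 0.15 (adjusted p 0.04), where 25.5% of genes were called. PDIA6 was also lower in INC424 than in SAR302503, at -0.51 ± 0.15 (adjusted p 0.03; 12.7% of genes). HERPUD1 was lower in BMS911543 than in CYT387, at -0.57 ± 0.19 (adjusted p 0.028; 31.4% of genes), and stood at -0.22, not called, without CYT387 line library 2. It was also lost without BMS911543 line library 1 (-0.53) or 2 (-0.55). HSP90B1 was lost without BMS911543 line library 1 or SAR302503 line library 1 or 2 (-0.45 to -0.34) and stood at -0.72 without SAR302503 line library 3. Both PDIA6 calls were lost without any compared library except SAR302503 line library 3, at -0.48 to -0.39 for BMS911543 against SAR302503 and -0.53 to -0.47 for INC424 against SAR302503. With upper-quartile scaling none of these calls between lines remained.

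No member was called between BMS911543 and INC424 (16.5% of genes called; 0 members at an unadjusted p under 0.05, 0 by edgeR and 0 by DESeq2). Other settings did call members there, 5 with sample quality weights and 3 with only the compared groups in the fit. Without the 4 libraries with most squamous marker RNA, DNAJB9 was called there (0.58). Over the 25 tests, the weights moved the number of all genes called by 0.657 to 4.11 times. Fitting only the compared groups moved it by 0.101 to 2.62 times. The share of all genes at an unadjusted p under 0.05 was not counted. In CYT387 against INC424 (24.4% of genes called) 0 members were called by limma, 3 had an unadjusted p under 0.05, edgeR called 1 and DESeq2 called 3. In CYT387 against SAR302503 (26.3%) limma called 0, 1 had an unadjusted p under 0.05, and edgeR and DESeq2 each called 1. Without CYT387 line library 2, PDIA4 was called lower in CYT387 (-0.45), BMS911543 (-0.51) and INC424 (-0.56) than in SAR302503. The same 3 differences were called without the 4 libraries with most squamous marker RNA (-0.32, -0.37 and -0.42). Single libraries of the CYT387 and SAR302503 lines decided further pairs. PDIA4 was called lower in BMS911543 than in CYT387 without CYT387 line library 1 (-0.82) or 3 (-0.80), against -0.56 ± 0.25 with all libraries and -0.05, not called, without library 2. It was called higher in CYT387 than in INC424 without library 1 or 3 (0.87 and 0.85) and stood at 0.10, not called, without library 2. CALR was called higher in CYT387 than in INC424 without CYT387 line library 1 (0.54) or 3 (0.50), but stood at 0.11, not called, without library 2. PDIA6 was called higher there without library 2 (0.56). Without SAR302503 line library 3, HSP90B1 was called lower in CYT387 (-0.50) and in INC424 (-0.63) than in SAR302503, and SDF2L1 higher in CYT387 (1.02). CALR differed between BMS911543 and INC424 by 0.16 log2, with a 95% interval of -0.17 to 0.49.

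The wider genes of the same compartment were counted from lists of known function, whose medians are given without a test. The median of all genes tested was 0.01 log2 for the mean of the lines against naive, -0.02 against DMSO and 0.02 for DMSO against naive. Among all genes, 12.0% were lower in that mean than in naive cells and 17.0% higher than in DMSO. After DMSO 14.6% were lower than in naive cells, and INC424 for 4 h had 8.37% called against DMSO. Of 12 sensors and regulators of the unfolded protein response, 8 were lower in the mean of the lines than in naive cells and 0 higher (median -0.43 log2). XBP1, whose mRNA is spliced by IRE1, averaged 9810 normalised reads in the lines against 19275 in naive cells and was called lower, with ERN1 itself at -1.13 ± 0.17 log2, the stress factor DDIT3 (CHOP) at -1.11 ± 0.25 and the pseudokinase TRIB3 at -1.30 ± 0.13. Against DMSO 7 of the 12 were higher and 0 lower (median 0.55), led by DDIT3 at 1.89 ± 0.25, ATF4 at 1.07 ± 0.15 and TRIB3 at 0.95 ± 0.13. After DMSO itself, 10 of the 12 were lower than in naive cells and 0 higher (median -0.86), with DDIT3 at -2.99 ± 0.32 and XBP1 at -1.77 ± 0.13. INC424 for 4 h had 1 of them higher and 1 lower than DMSO, CREB3L2 at 0.58 ± 0.11 and TRIB3 at -0.70 ± 0.16. Without CYT387 line library 2, 10 of the 12 were lower than naive in the mean of the lines and 7 higher than DMSO, and INC424 for 4 h had 5 higher and 2 lower than DMSO. Among all genes the share called was then 30.8%, 44.3% and 16.7% in these 3 comparisons.

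Of 26 other ER chaperones and oxidoreductases, 10 were lower and 1 higher in the mean of the lines than in naive cells (median -0.23 log2). Among all genes tested, 12.0% were lower there and 21.8% were called in either direction. The oxidase ERO1LB stood at -1.18 ± 0.16, P4HB (PDI) at -0.91 ± 0.09 and UGGT1, which returns glycoproteins to the lectin chaperones, at -0.84 ± 0.11. P4HB stood at -0.91 ± 0.11 after DMSO against naive, while UGGT1 stood there at 0.00 ± 0.14. Against DMSO, UGGT1 was lower in the lines, at -0.84 ± 0.11, as 5 of the 26 were, and 6 were higher. Among all genes, 16.4% were lower and 17.0% higher than DMSO. Of 15 N-glycosylation genes 7 were lower than naive and 0 higher, among them the oligosaccharyltransferase subunits STT3A at -0.58 ± 0.11 and STT3B at -0.56 ± 0.12. Of 20 translocation genes 7 were lower and 0 higher, with SEC63 at -0.76 ± 0.17. Of 20 degradation genes 5 were lower and 3 higher, with the mannosidase-like EDEM1 at -1.05 ± 0.09 and SEL1L at -0.78 ± 0.11. Of 12 ER calcium genes 1 was lower and 2 higher, and of 20 vesicle coat and cargo genes 5 were lower and 1 higher. These lists, too, stand beside 12.0% of all genes lower and 21.8% called against naive.

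Cytosolic and mitochondrial chaperones, which lie outside the ER, were counted beside these. Of 15, 9 were higher after DMSO than in naive cells and 0 lower (median 0.46 log2), with HSPA8 at 0.78 ± 0.15 and HSPH1 at 0.97 ± 0.18. Among all 20154 genes tested, 2307 were higher and 2942 lower in that comparison. INC424 had 10 of them lower than DMSO at 4 h and 11 at 48 h, with 0 higher at either time. Among all 20154 genes tested, 703 were lower than DMSO at 4 h and 3297 at 48 h. HSPA8, the constitutive cytosolic HSP70, was lower, at -1.64 ± 0.15 at 4 h. In the mean of the lines 9 were lower and 1 higher than DMSO, whereas 3 were lower and 2 higher than naive. Among all genes tested, 16.4% were lower than DMSO and 12.0% lower than naive in that mean. With CYT387 line library 2 left out, 13 of the 15 were higher after DMSO than in naive cells and 13 lower than DMSO after INC424 for 4 h, where 37.8% and 16.7% of all genes were called.

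**Figure D4:**
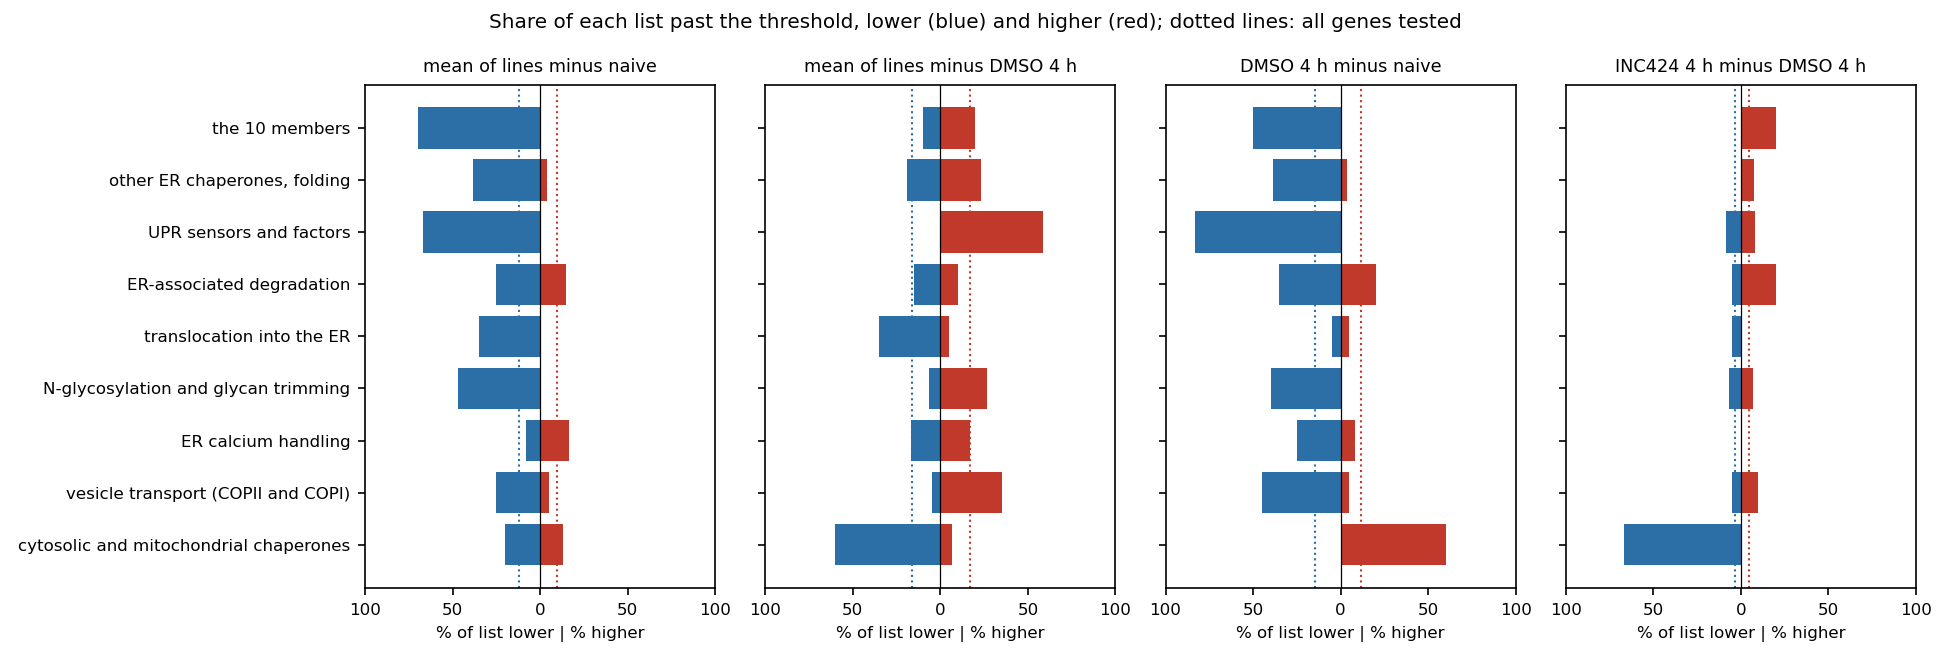
Percent of each list's tested genes that were lower (to the left) or higher (to the right) in 4 comparisons, with dotted lines at the percent for all genes tested. The unfolded protein response list has 0 of 12 genes higher in the lines against naive and 0 lower against DMSO.

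By the root mean square difference of centred log2 group means over the 8 groups, among 12426 genes with a mean count of at least 100, the genes closest to the mean profile of the members were IGF2R (0.0539), PPP1R11, FYCO1, CRTAP, FADS1, C1orf86, IMPACT and TMEM214 (0.0827). That profile had naive cells at 0.34 log2, the CYT387 line at 0.11 and all other groups between -0.17 and 0.01. Without CYT387 line library 2 the CYT387 line stood at -0.0026, naive cells at 0.36 and the others between -0.15 and 0.03. A flat profile lay at 0.153 from it, and 238 genes were closer than that. The genes closest to CALR were ZNF25 (0.0745), BMP1, SEC62, TCTN3, PPIP5K2, TMED10, KCTD10 and PATZ1 (0.0980), against 0.169 for a flat profile. Of each set of 8 closest genes, 3 for the members (IGF2R, PPP1R11 and CRTAP) and 2 for CALR (PPIP5K2 and ZNF25) were also among the 8 closest without that library.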

How the data were processed

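Poly(A) RNA of 24 SET2 libraries was fragmented with RNase III, amplified over 16 PCR cycles and sequenced on an Ion Proton, per the labels' protocols. The submitters' processing notes name the builds hg19 and GRCh37 and the tools DESeq 1.10.1, HTSeq 0.5.3p3 and BWA 0.7.5.1, and whether counting used strand is not given in the sources used here. The authors deposited 1 table of normalised signal, in which each value is a whole read count divided by 1 size factor per library (100% of values, within 0.01 read). In 3 libraries the size factor is within 0.01 of 1, so their values are close to reads. Samples were grouped by the labels. The values were analysed as log2(value + 1) with limma 3.58.1 (trended empirical Bayes, R 4.3.3) in 1 fit over 8 groups with 16 residual degrees of freedom, for 23 comparisons and 2 F tests, with Benjamini-Hochberg adjustment and a threshold of 0.05. A fold change on this scale is understated for low genes. A count test was not the main test because the deposited values are normalised. edgeR 4.0.16 and DESeq2 1.42.0 were run on the recovered reads as alternatives, and the scripts were tested on simulated data. The 10 members and the gene lists were chosen with earlier results of these data known, and no p was adjusted over a list alone. Beyond the members, the genes named are list genes with a mean of at least 50 in the groups compared, and, for likeness, those with the smallest root mean square difference. No 2 libraries of a group agreed within sampling noise. PCR reads without molecular identifiers are not independent molecules. Other settings tried were pseudocounts, filters, scalings, sample weights, the groups in the fit, a replicate block, a term for the 9 libraries run again, and leaving out libraries. The libraries run again were uneven over groups, with none among the naive or CYT387 line libraries. They included DMSO libraries 2 and 3, INC424 4 h libraries 1 and 2 and SAR302503 line libraries 1 and 3.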

Additional observations from a re-analysis of the deposited data

Results flagged for a closer look

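Between the 2 INC424 times and between pairs of persistent lines, 6 differences of members passed a direct limma test between groups that share their controls. The 3 members called between the INC424 line and INC424 for 48 h are given with that comparison. Relative to DMSO, HYOU1 was lower after INC424 for 48 h than after 4 h (-0.82 log2), being above DMSO at 4 h, a call lost without any 1 of the 6 libraries compared, and below it at 48 h. HERPUD1 was 0.92 log2 higher at 48 h than at 4 h. Among the persistent lines, HERPUD1 was lower in BMS911543 than in CYT387 (-0.57), and without CYT387 line library 2 the difference was -0.22 and not called. HSP90B1 was lower in BMS911543 than in SAR302503 (-0.48), a call lost without BMS911543 line library 1 or SAR302503 line library 1 or 2 (-0.45 to -0.34). PDIA6 was lower in BMS911543 than in SAR302503 (-0.44) and in INC424 than in SAR302503 (-0.51), and both calls were lost without any compared library except SAR302503 line library 3 (-0.48 to -0.39 and -0.53 to -0.47). With upper-quartile scaling no member was called in any of these pairs of lines. The cause was not tested.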

How the results depend on the processing

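Numbers of members called are given with the setting first and the value of the analysis as reported after it. They are not set beside the share of all genes called in the same comparison and setting. The number of all genes called moved as well, by 0.657 to 4.11 times with sample quality weights. It moved by 0.101 to 2.62 times with only the compared groups and by 1.03 to 2.66 times without the 4 libraries. No single number below is therefore read as a result about the members. With sample quality weights they were 7 against 3 for INC424 48 h versus DMSO, 6 against 2 for 48 h versus 4 h, and 8 against 5 for both the BMS911543 line and DMSO versus naive. They were 5 against 3 for INC424 4 h versus naive, 1 against 3 for SAR302503 versus naive, and 7 against 3 for both BMS911543 and INC424 versus DMSO. They were 5 against 2 for CYT387 versus DMSO, 2 against 4 for SAR302503 versus DMSO, 8 against 3 for the INC424 line versus 48 h and 8 against 3 for the mean of the lines versus DMSO. Between lines the weights gave 4 against 1 for BMS911543 versus CYT387, 5 against 0 for BMS911543 versus INC424, 2 against 0 for CYT387 versus INC424, 2 against 1 for INC424 versus SAR302503 and 4 against 2 for any difference among the 4 lines. With only the compared groups in the fit they were 7 against 3 for 48 h versus DMSO, 6 against 2 for 48 h versus 4 h, 0 against 4 and 0 against 3 for CYT387 and SAR302503 versus naive, and 7, 1, 6 and 1 for BMS911543, CYT387, INC424 and SAR302503 versus DMSO. That fit gave 7 for the INC424 line versus 48 h, 0 for BMS911543 versus CYT387, 3 for BMS911543 versus INC424, 1 for BMS911543 versus SAR302503 and 0 among the 4 lines.

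Without the 4 libraries richest in squamous marker RNA the numbers were 6 for 48 h versus DMSO, 5 for 48 h versus 4 h, 9 and 5 for BMS911543 and SAR302503 versus naive, 7 and 5 for BMS911543 and CYT387 versus DMSO, 9 for DMSO versus naive, 6 for INC424 4 h versus naive, 6 for the INC424 line versus 48 h and 7 for the mean of the lines versus DMSO. Between lines it gave 3 for BMS911543 versus CYT387, 1 for BMS911543 versus INC424, 1 and 3 for CYT387 versus INC424 and SAR302503, 5 for INC424 versus SAR302503 and 5 among the 4 lines. Among the 9 called there for DMSO versus naive, PDIA4 (0.25) and SDF2L1 (0.77) were higher and the others lower. DESeq2 gave 5 for BMS911543 versus DMSO, 2 for BMS911543 versus CYT387, 3 and 1 for CYT387 versus INC424 and SAR302503, 2 for INC424 versus SAR302503 and 4 among the lines. edgeR gave 1 for 4 h versus DMSO, 2 for BMS911543 versus CYT387, 1 for CYT387 versus each of INC424 and SAR302503, and 4 among the lines. For 4 h versus DMSO 1 was also called with no filter, TMM scaling, upper-quartile scaling or no trend. TMM scaling gave 1 for BMS911543 versus SAR302503, 0 for INC424 versus SAR302503 and 0 among the lines. Upper-quartile scaling gave 0 for these 3 and 0 for BMS911543 versus CYT387. Without trend the numbers were 2 for SAR302503 versus DMSO, 1 for BMS911543 versus SAR302503 and 0 among the lines. The term for libraries run again gave 2 for BMS911543 versus CYT387 and 1 for CYT387 versus SAR302503, where a filter at 50 also gave 1.

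Leaving out 1 library at a time gave 0 to 2 for 4 h versus DMSO, 3 to 4 for 48 h versus DMSO, 2 to 5 for 48 h versus 4 h, 4 to 8 for the mean of the lines versus naive and 2 to 5 versus DMSO, and 3 to 6 for DMSO versus naive. Versus naive the range was 3 to 8 for BMS911543, 2 to 5 for CYT387, 5 to 8 for INC424 and 2 to 6 for SAR302503. Versus DMSO it was 2 to 7, 1 to 4, 1 to 4 and 1 to 6 in the same order. It was 2 to 5 for INC424 4 h and 3 to 5 for 48 h versus naive, 2 to 5 for the INC424 line versus 48 h, and 0 to 4 among the lines and 6 to 9 among the 8 groups. Between pairs of lines it was 0 to 2 or 0 to 3, and 0 in every case for BMS911543 versus INC424.

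PDIA4 changed sign in CYT387 versus naive with sample quality weights (-0.29) and without CYT387 line library 2 (-0.28). In CYT387 versus SAR302503 it changed sign and was called without the 4 libraries (-0.32). Leaving out 1 CYT387 line library at a time, it lay there between 0.31 and -0.45, the latter without library 2 and called. Without that library HERPUD1 in CYT387 versus naive (0.08 with all libraries, -0.27 without) and PDIA6 in CYT387 versus DMSO (-0.17 and 0.09) also changed sign, and neither was called. The number of all genes called moved by over 1.5 times in 16 of 25 tests with sample quality weights (0.657 to 4.11 times), 16 with only the compared groups (0.101 to 2.62 times), 13 without the 4 libraries (1.03 to 2.66 times) and 7 without CYT387 line library 2 (0.813 to 1.97 times). Upper-quartile scaling moved the median of all genes by -0.13 log2 in CYT387 versus DMSO, and no member called there changed direction under either scaling. Replicate numbers did not pair the libraries: of 84 same-numbered pairs 12 correlated above 0.1, and 5 of 24 libraries correlated best with their own number. With a replicate block 2 calls were lost, SDF2L1 in BMS911543 versus DMSO (-0.93) and CALR in the mean of the lines versus naive (-0.36). The cause of these changes was not tested. DNAJB9 and SDF2L1 rest on the lowest counts of the 10, from 117 and 137 normalised reads.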

Other observations

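Beyond the members, 35 genes carried ERSE or ERSE-II in the 250 bases before their start (RefSeq GRCh38.p14), and 22 of them were tested. In the mean of the lines against naive cells 4 of the 22 were lower and 2 higher (median -0.11 log2), where 12.0% of all genes were lower and 9.79% higher. The lower ones were ERO1LB (-1.18), XBP1, SERP1 (-0.62) and EIF2A (-0.50). Against DMSO 5 of the 22 were higher and 2 lower (17.0% and 16.4% of all genes), and DMSO itself had 6 lower and 2 higher than naive cells (14.6% and 11.4%). After INC424 for 4 h 2 were higher and 0 lower than DMSO (4.88% and 3.49%). These counts describe the letters before each gene and were not tested.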
